A study of Mus musculus with 2 samples.

Results

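The Pramel genes of mouse embryonic stem cells were examined in 2 single-cell RNA libraries of a line that carries GFP under a MERVL promoter. Members were all features whose symbol starts with Pramel or Pramef. The rule found 48 of 55415 features, all named Pramel, and 0 symbols started with Pramef. Over both libraries 21 members had at least 50 UMIs (unique molecular identifiers, counted as RNA molecules) and are described with their values. The other 27 members were taken as undetected, and 13 of them had 0 UMIs.

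The line was made to follow 2C-like cells, a rare state of embryonic stem cells with transcripts of the 2-cell embryo, and also expresses H2B-mIFP as a tracking label. MERVL is an endogenous retrovirus that is switched on in that state. One library held cells labelled MERVL GFP positive (the positive library) and the other held cells labelled MERVL GFP negative (the negative library), both of the same line with no other treatment named. The labels give neither the way in which the cells were separated nor the number of clones. With 1 library per group there is no replicate and no test, and the library, its batch and the group cannot be told apart.

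Pramel genes encode leucine-rich repeat proteins related to human PRAME, and most lie in tandem arrays of near copies. They are known chiefly from germ cells and early embryos. Several PRAME proteins serve as substrate receptors of CUL2 ubiquitin ligases, and Pramel7 is known to target UHRF1, the cofactor of maintenance DNA methylation. Zscan4 genes, a tandem family that is active in the 2-cell embryo, served here as the marker of the 2C-like state in each cell.

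After filtering, the positive library held 4596 cells with a median of 29554.5 UMIs and the negative library 3832 cells with a median of 39099.5 UMIs. GFP was at 205 CPM (the UMIs of a gene scaled to equal library totals) in the positive and 0.454 CPM in the negative library. The 9 Zscan4 features together were at 483 CPM and 0.812 CPM. The 11 pluripotency markers summed to 15411 and 15008 CPM, and all 11 had at least 50 UMIs. Trophoblast markers summed to 11.1 and 4.41 CPM, and fibroblast markers to 12.8 and 3.14 CPM. Of the 7 markers of each, 5 and 3 had at least 50 UMIs, and none was at 0. The 8 primitive endoderm markers summed to 199 and 95.7 CPM, with none at 0, and they recur below beside Pramel7. Intervals are at 95% and cover counting error only.

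The members lie in a few arrays, and detection differed between them. Coordinates are those of GENCODE M21 (GRCm38, the same assembly as mm10). Pramel7 and Pramel6 lie side by side on chromosome 2 (chr2:87489087-87510872). Pramel17, Pramel18 and Pramel19 form a small array on chromosome 4 (chr4:101834969-101943183), and all 3 were detected. A larger array at chr4:143394428-144408464 held 22 members, of which 14 were detected and 3 had 0 UMIs. On chromosome 5 (chr5:93481829-95736173), 1 of 18 members was detected, Pramel40, and 10 had 0 UMIs. The single X-linked member, Pramel3, was detected with 79 UMIs, whereas Pramel32 on chromosome 4 and Pramel51 on chromosome 12 had 9 and 8 UMIs.

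**Figure D1:**
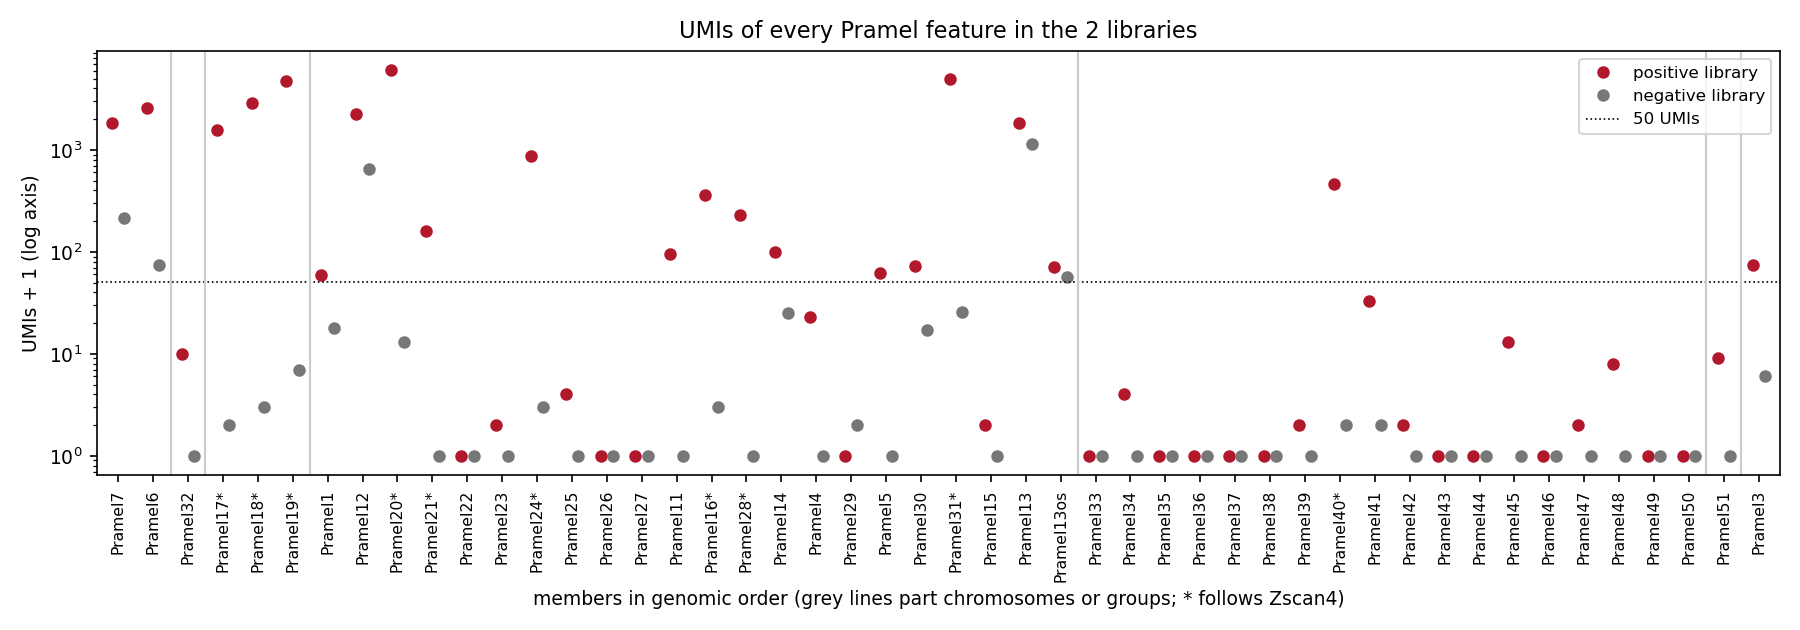
UMIs plus 1 (log axis) of all 48 members in the positive library (red) and the negative library (grey), in genomic order, with vertical lines between arrays and an asterisk on members that follow Zscan4. Both members of the chromosome 2 pair and all 3 of the small chromosome 4 array stand above the 50 UMI line, whereas 17 of the 18 on chromosome 5 stand below it.

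Near-identical copies limit what a low count shows. For each member, the share of its 50-base transcript windows that also occur in another gene was computed from the GENCODE M21 transcripts. The median was 33.7% over the 21 detected members and 84.5% over the 27 undetected members. Over the 10 undetected members outside chromosome 5 it was 38.2%, with 2 above 50%. All 18 members on chromosome 5 shared more than 50% of their windows, with a median of 91.1%, and Pramel36, Pramel37, Pramel49 and Pramel50 shared 100%. How reads that match several genes were counted is not given in the sources used here, so the low counts on chromosome 5 do not show low expression. The undetected members summed to 101 UMIs in the positive and 2 in the negative library. Pramel41, just under the limit, had 33 UMIs, and Pramel5, just above it, had 61.

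The family as a whole took a larger share of the positive library. Its 48 members held 31352 UMIs there, or 0.0227% (0.0224 to 0.0229) of all UMIs. They held 2241 UMIs of the negative library, or 0.00143% (0.00137 to 0.00149). Different members made up these sums. The 10 members that follow Zscan4, described next, held 70.9% of the family's UMIs in the positive library against 2.28% in the negative. Pramel13, Pramel12 and Pramel7 held 50.4%, 29.2% and 9.50% of the negative library's.

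To compare cells within the positive library, each cell was reduced at random to 10000 UMIs, which left 4402 cells there and 3824 in the negative library. Cells with at least 5 Zscan4 UMIs of these 10000 were called Zscan4-high (1098 cells) and cells with none were called Zscan4-0 (1423 cells). A member was said to follow Zscan4 when its CPM + 1 was at least 4 times higher in Zscan4-high than in Zscan4-0 cells. By this rule 10 of the 21 detected members followed Zscan4, against 1.83% of the 19341 features with at least 50 UMIs. Between the libraries, 9 of the 21 were at least 4 times higher in the positive library, against 1.79% of all features, and 0 were 4 times lower, against 0.0103%. None was 4 times lower in Zscan4-high cells, against 0.0259%. A member could reach 50 UMIs through the positive library alone, so these counts describe the detected members and not the family. With GFP in place of Zscan4, 4 members passed the same rule, against 1.22% of all features. At a ratio of at least 8, 6 followed Zscan4, and the share of all features at that ratio was not computed.

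Pramel20 and Pramel31 lie in the large chromosome 4 array, at chr4:143551700-143573798 and chr4:144357942-144364419, and are named BC080695 and Gm13119 in GENCODE M21. Pramel20 had 6064 UMIs in the positive library against 12 in the negative, or 43.8 and 0.0767 CPM, a ratio of 571 (327 to 1107). Along the Zscan4 classes of 0, 1 to 4, 5 to 19 and 20 or more UMIs it was at 8.24, 21.5, 99.0 and 295 CPM. The rise held at each step, and the Zscan4-high cells were 18.5 times (16.7 to 20.6) above the Zscan4-0 cells. Pramel31 had 4924 and 25 UMIs, or 35.6 and 0.160 CPM, a ratio of 223 (151 to 345). Over the same classes it was at 7.55, 19.99, 82.3 and 212 CPM, with the Zscan4-high cells 15.6 times (14.0 to 17.4) higher. For both genes the Zscan4-0 cells were also above the negative library, by 107 times (60.8 to 210) for Pramel20 and 47.3 times (31.5 to 74.0) for Pramel31. These 2 were among 6 of the 21 detected members past 4-fold in that comparison, against 0.957% of all features.

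The windows around the annotated starts of these genes are shown because the pair moved together and their start regions are alike. They are from RefSeq (GRCm38.p6), run 5′ to 3′ on the gene's strand over 300 bases that span the annotated start, and have any TATAAA in capitals. Pramel20 is chr4:143567217-143567516 and Pramel31 is chr4:144357714-144358013, both on the plus strand.
Pramel20: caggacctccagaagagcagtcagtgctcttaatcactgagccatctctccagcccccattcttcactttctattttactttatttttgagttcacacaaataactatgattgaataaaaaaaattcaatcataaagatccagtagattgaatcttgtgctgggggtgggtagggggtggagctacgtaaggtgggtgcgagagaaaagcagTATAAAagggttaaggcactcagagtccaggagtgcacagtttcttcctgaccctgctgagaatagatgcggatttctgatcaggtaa
Pramel31: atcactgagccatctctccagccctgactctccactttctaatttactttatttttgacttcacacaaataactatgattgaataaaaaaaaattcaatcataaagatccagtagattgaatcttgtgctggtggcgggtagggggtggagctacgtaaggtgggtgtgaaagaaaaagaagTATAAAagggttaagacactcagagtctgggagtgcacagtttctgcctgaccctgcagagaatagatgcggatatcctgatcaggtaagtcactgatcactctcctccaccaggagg
Aligned end to end, the windows were identical at 251 of 332 columns (75.6%), and the longest run without a difference was 47 bases. RefSeq starts may not be the starts used in these cells, and the GENCODE M21 start of Pramel20 lies further upstream. TATAAA on either strand was in 12 of the 37 members' windows and in 13.6% of 32851 windows of all genes. Among the 8 Zscan4-following members with a window, Pramel20 and Pramel31 held it. CCAAT or its reverse complement was in 4 of these 8, in 21 of the 37 and in 37.4% of all windows. The octamer ATGCAAAT was in 0 of the 37 members' windows and in 1.74% of all windows. A match, or its absence, describes these letters in these windows and nothing more.

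Pramel17, Pramel18 and Pramel19, the small chromosome 4 array, all followed Zscan4. They are named B020004J07Rik, Gm12800 and Gm12794 in GENCODE M21. Pramel19 had 4717 UMIs in the positive library against 6 in the negative, a CPM ratio of 889 (408 to 2424). It was at 6.97, 10.6, 70.6 and 286 CPM along the 4 Zscan4 classes. Pramel18 had 2881 and 2 UMIs, a ratio of 1629 (451 to 13458), and was at 3.53, 5.37, 48.0 and 178 CPM. Both genes stood little above the Zscan4-0 level at 1 to 4 Zscan4 UMIs, at 1.52 times for each (1.33 to 1.74 for Pramel19 and 1.26 to 1.84 for Pramel18). Their step from 1 to 4 to 5 to 19 Zscan4 UMIs was the larger one, 6.66 times (6.07 to 7.32) for Pramel19 and 8.94 times (7.87 to 10.2) for Pramel18. Pramel17 had 1554 UMIs and 1 UMI and was at 2.47, 6.61, 23.9 and 63.5 CPM, with a first step of 2.68 times (2.18 to 3.31). Pramel20 and Pramel31 resembled Pramel17 in that step, at 2.60 times (2.33 to 2.92) and 2.65 times (2.35 to 2.98). The last 500 bases of the Pramel18 and Pramel19 transcripts are shared in full with other genes, mainly each other, so the division of UMIs between the 2 is uncertain.

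The other 5 members that followed Zscan4 had fewer UMIs, 875 for Pramel24, 458 for Pramel40, 356 for Pramel16, 230 for Pramel28 and 159 for Pramel21 in the positive library. Pramel24 and Pramel16 had 2 UMIs each in the negative library, Pramel40 had 1, and Pramel28 and Pramel21 had 0. Counted against 3 UMIs, the limit that a count of 0 allows, Pramel28 was at least 86.7-fold and Pramel21 at least 59.9-fold higher in the positive library. Pramel24 was at 1.27, 2.45, 11.8 and 53.5 CPM along the Zscan4 classes. Pramel28 had the highest ratio of Zscan4-high to Zscan4-0 cells among the 10, at 38.5 times (19.1 to 90.5), and the interval holds the ratios of Pramel16 (23.9) and Pramel18 (23.7). Pramel21 passed the rule narrowly, at a log2 ratio of 2.04. Pramel40, the detected member on chromosome 5, shared 94.5% of its windows with other genes, so its UMIs may belong to more than 1 copy. All 10 were higher at every step of the Zscan4 classes, an order that the rule fixes in part. Their steps spanned 1.52 to 4.47 times, then 3.36 to 8.94 and then 2.57 to 4.89, and the 1 interval that reached down to 1 was the first step of Pramel21 (0.798 to 3.60).

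**Figure D2:**
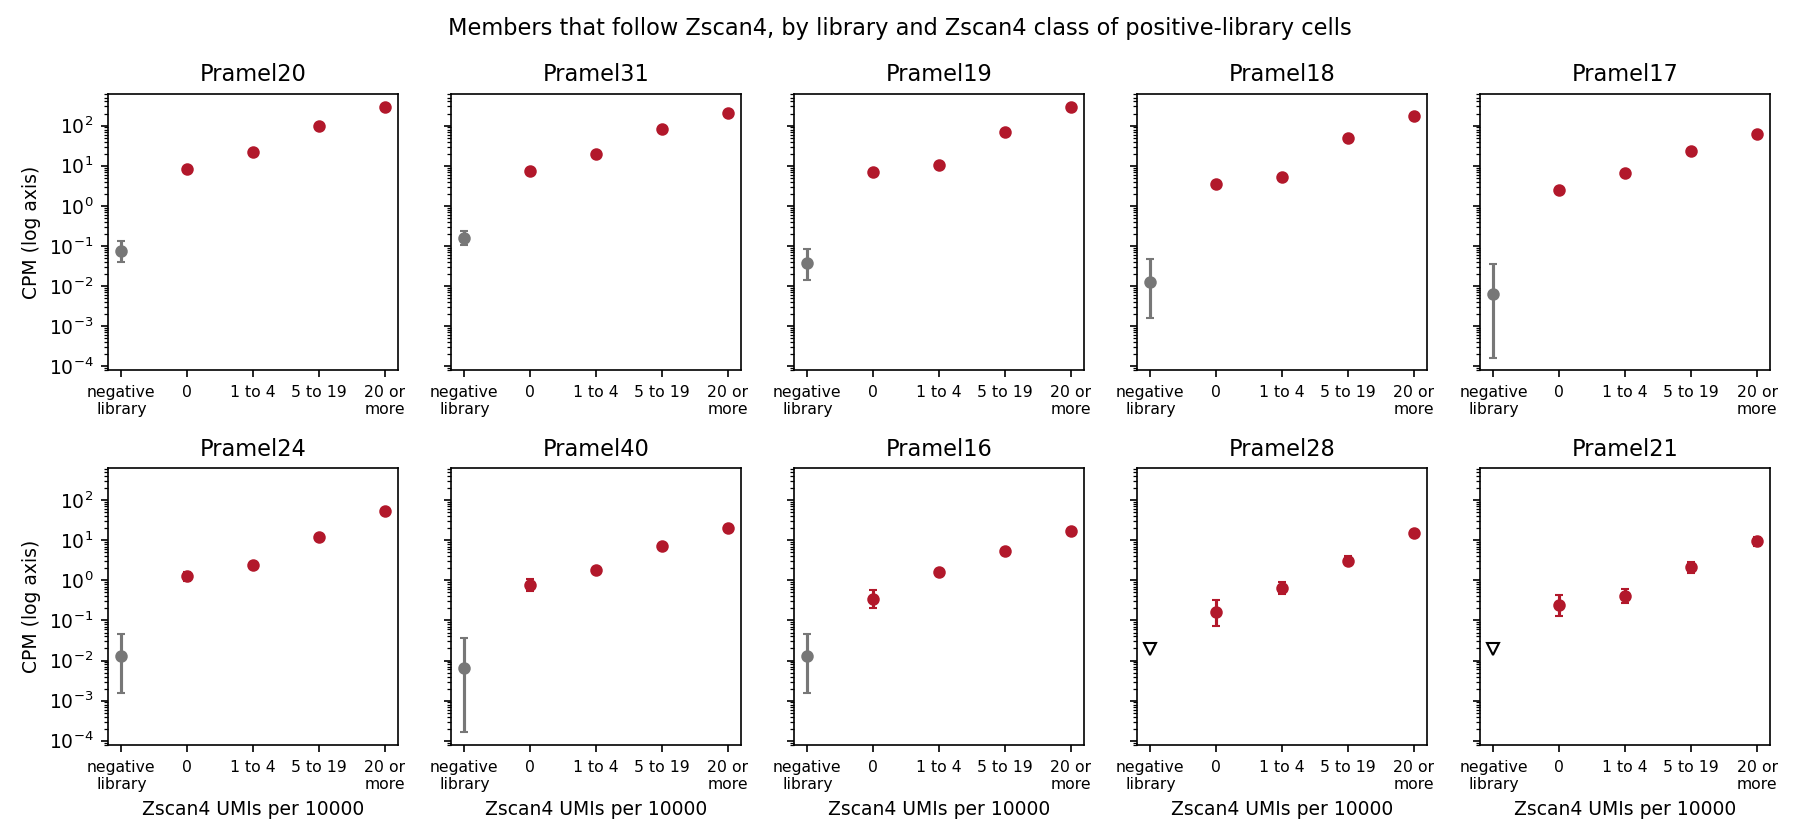
CPM (log axis) of the 10 members that follow Zscan4 in the negative library (grey) and in positive-library cells with 0, 1 to 4, 5 to 19 or 20 or more Zscan4 UMIs of 10000 (red). Bars are exact Poisson intervals, and an open triangle marks the level of 3 UMIs where the count was 0; each panel climbs from left to right, from 8.24 to 295 CPM across the red points for Pramel20.

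Depth, other markers and Zscan4 itself moved with these classes. The median UMIs per cell were 33154 in Zscan4-0 cells, 31303 and 25390 in the middle classes and 19514 in cells with 20 or more Zscan4 UMIs. Zscan4-0 cells still held Zscan4 UMIs outside the 10000 drawn, at 47.5 CPM against 1916 CPM in Zscan4-high cells. The pluripotency markers summed to 16466 CPM in Zscan4-0 and 11599 CPM in Zscan4-high cells. The endoderm markers summed to 223, 217, 145 and 66.0 CPM along the 4 classes. The part of depth and of these markers in the members' ratios, that of Pramel7 included, was not tested. No empty-droplet counts were used, so the part of free RNA and of doublets in the levels of Zscan4-0 cells was not tested.

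Per cell, detection of the Zscan4-following members was graded rather than uniform. At 10000 UMIs, Pramel20 was detected in 58.1% (55.1 to 61.0) of Zscan4-high cells and in 7.52% (6.20 to 9.01) of Zscan4-0 cells. It was detected in 3 of 3824 negative-library cells, 0.0785% (0.0162 to 0.229), the background share. Without reduction to equal depth the share in Zscan4-high cells was 75.8%. Pramel31 and Pramel19 were detected in 50.3% and 41.9% of Zscan4-high cells, and Pramel18 in 28.9%. Pramel18 was in 0 of 3824 cells of the negative library, which allows a share of up to 0.0785% (3 cells), and before reduction in 0.0522%. Even the most widely detected member was thus missed in many Zscan4-high cells at this depth. Single cells reached 104 UMIs of Pramel19 and 83 of Pramel18 in 10000.

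**Figure D3:**
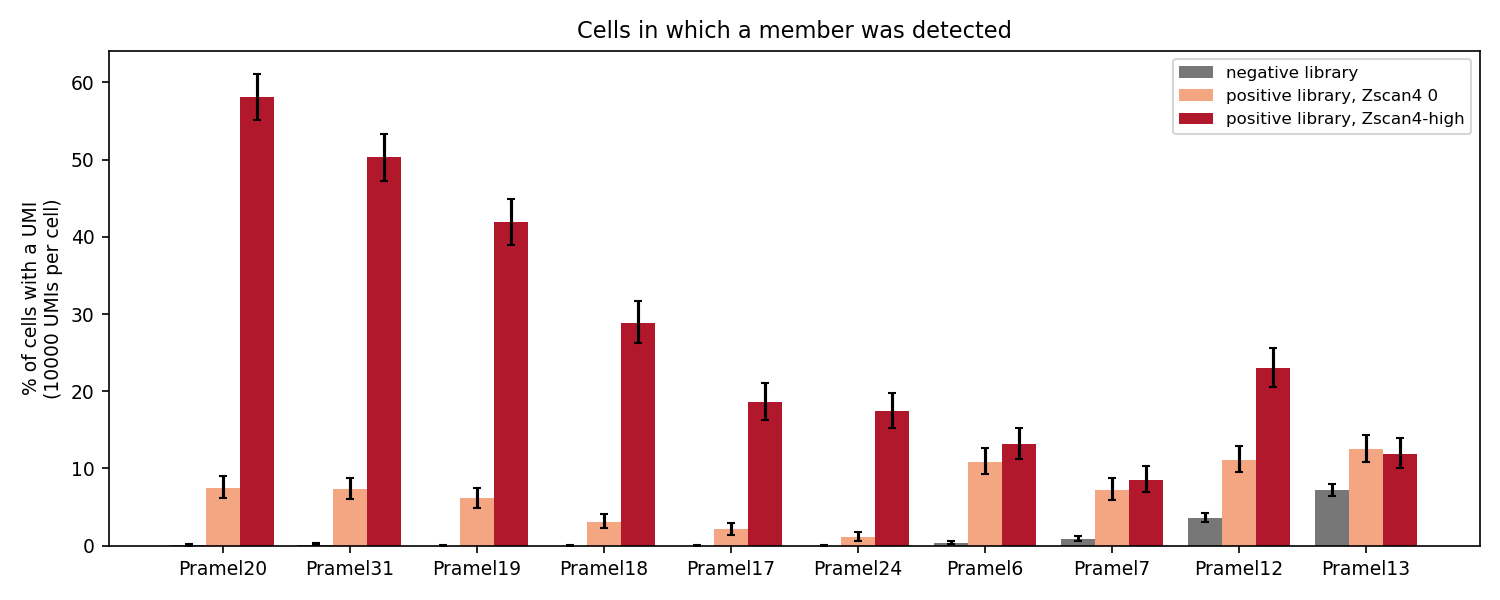
Percent of cells with at least 1 UMI of a member, after reduction to 10000 UMIs per cell, in the negative library (grey), Zscan4-0 cells (orange) and Zscan4-high cells (red) of the positive library. Bars are exact binomial intervals; the red bar of Pramel20 reaches 58.1%, whereas for Pramel13 the red and orange bars, 11.9% and 12.5%, overlap in their intervals.

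Several of the 10 were often found in the same cell. The 10 were chosen for being higher in Zscan4-high cells, so this and their correlation with Zscan4 follow in part from the choice. Whether they met in a cell more often than their single shares would give was not tested. In cells with 20 or more Zscan4 UMIs the median cell had 3 of the 10 (quartiles 2 and 5), 70.2% had at least 3, and 1.65% had none. Of the Zscan4-0 cells, 75.8% had none. In the negative library 99.8% had none and 1 cell had 3. Over 4402 cells, which share a library and differ in depth before reduction, Pearson's r with summed Zscan4 was 0.58 for Pramel20, 0.51 for Pramel31, 0.50 for Pramel19 and 0.43 for Pramel18. With GFP the same 4 had r of 0.33, 0.26, 0.20 and 0.16, and Zscan4 with GFP had 0.42. Among pairs of members, Pramel18 and Pramel19 had the highest r (0.64, Spearman's rho 0.41), followed by Pramel20 and Pramel31 (0.57, rho 0.43). Members of both pairs share transcript sequence. Beside Pramel18 and Pramel19, given above, Pramel20 shares 55.3% of its windows with other genes (31.6% with other members) and Pramel31 38.6% (34.8%), so their UMIs may also be divided among copies.

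The classes were then crossed with GFP. The 10 members were chosen by their ratio between Zscan4 classes, so a larger ratio by Zscan4 than by GFP follows in part from the choice. All 10 were higher in GFP-high cells (at least 3 GFP UMIs) than in cells with no GFP UMI, at CPM ratios of 4.18 to 9.82. With 1 added to each CPM, Pramel17, Pramel19, Pramel20 and Pramel31 passed 4, against 1.22% of all features. Among GFP-0 cells, all 10 were higher in the 149 Zscan4-high than in the 779 Zscan4-0 cells, by 17.0 to 35.8 times. There 9 of the 21 detected members passed the rule, against 1.72% of all features. Within Zscan4-high cells the ratios of GFP-high to GFP-0 cells ran from 1.01 to 2.33, and 5 of 10 intervals lay above 1. No member reached 4 there, against 0.0259% of all features. The ratios for GFP were thus smaller within Zscan4-high cells than over all cells. Summed Zscan4 was at 2016 CPM in the GFP-high and 1479 CPM in the GFP-0 cells of that class. The part of these Zscan4 and GFP differences in the ratios was not tested.

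Among Zscan4-0 cells the members differed in how they moved with GFP. Of the 10, 9 were higher in GFP-high cells, with 7 intervals above 1, and the highest ratio was that of Pramel40, at 5.65 (2.29 to 14.4) on 13 and 10 UMIs. Pramel20 was at 5.08 CPM in the 779 GFP-0 cells and 20.6 CPM in the 198 GFP-high cells, a ratio of 4.06 (3.16 to 5.21). Pramel17 was at 1.42 and 6.66 CPM, a ratio of 4.69 (2.94 to 7.49). Pramel31 was at 5.64 and 14.4 CPM, a ratio of 2.56 (1.95 to 3.35). These 3 were thus higher with GFP where Zscan4 was not drawn, whereas the neighbours of Pramel17 were little or no higher. Pramel19 was at 5.30 and 8.93 CPM (1.68, 1.21 to 2.31) and Pramel18 at 3.40 and 3.25 CPM (0.955, 0.558 to 1.56). The intervals of the Pramel17 and Pramel18 ratios did not overlap, but they do not cover spread between cells. After reduction to equal depth, Pramel17 was detected in 1.54% (0.798 to 2.68) of GFP-0 and 4.04% (1.76 to 7.81) of GFP-high cells. For Pramel18 the shares were 3.85% (2.61 to 5.45) and 2.53% (0.825 to 5.79). By shares of cells the intervals thus overlapped for each gene. With 1 added to each CPM no member reached 4 in this comparison, against 0.636% of all features. Remaining Zscan4 was at 42.1 CPM in the GFP-0 and 58.1 CPM in the GFP-high cells of this class, and its part in these ratios was not tested. At the top of the GFP range, from 3 to 5 to 6 or more GFP UMIs, Pramel20 was 1.51 times higher (1.41 to 1.61). In CPM, Pramel19 and Pramel18 were lower there, at 0.775 (0.713 to 0.842) and 0.729 (0.652 to 0.813). Their shares of cells with a UMI, after reduction to equal depth, differed little. These were 26.4% and then 28.7% for Pramel19, and 18.1% and then 17.7% for Pramel18. Single cells held up to 104 UMIs of Pramel19 and 71 of Pramel18 at 3 to 5 GFP UMIs, against 21 and 16 at 6 or more. The intervals of the CPM ratios do not cover such spread between cells.

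**Figure D4:**
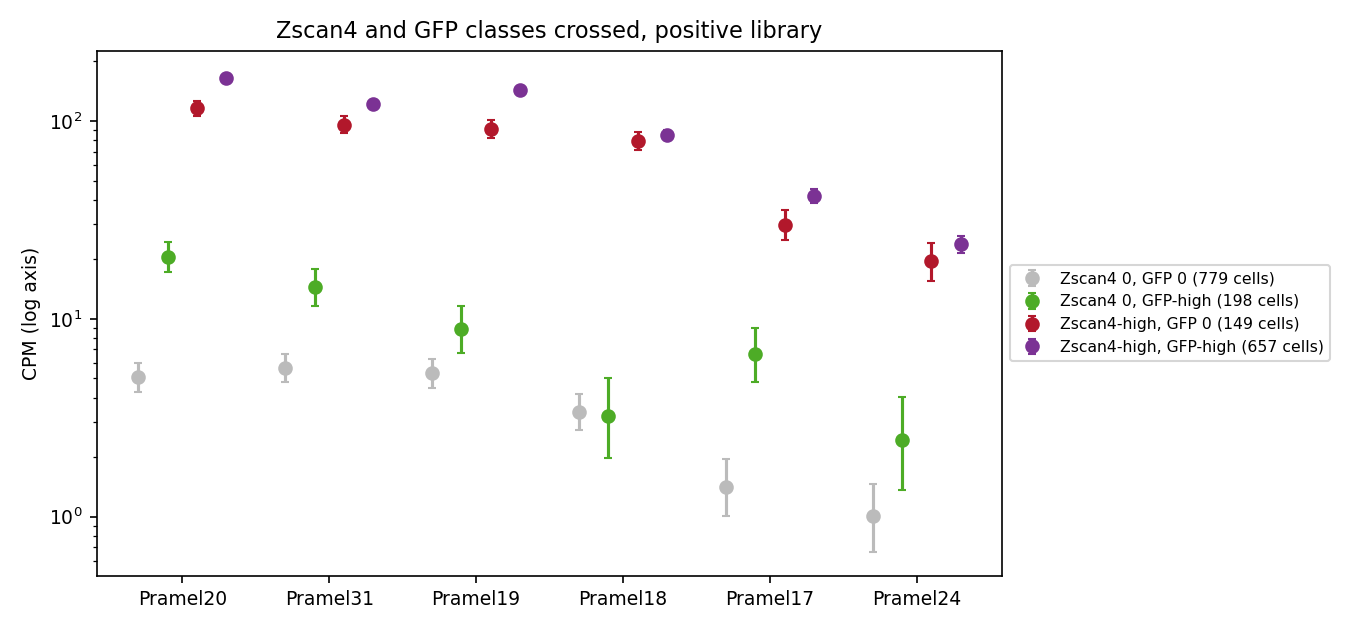
CPM (log axis) of 6 members in positive-library cells split by Zscan4 and GFP, with exact Poisson intervals: Zscan4-0 and GFP-0 (grey, 779 cells), Zscan4-0 and GFP-high (green, 198), Zscan4-high and GFP-0 (red, 149), Zscan4-high and GFP-high (purple, 657). The green point of Pramel20 lies above its grey point (20.6 and 5.08 CPM), whereas those of Pramel18 overlap (3.25 and 3.40 CPM).

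Pramel6 and Pramel7, the neighbours on chromosome 2, were higher in the positive library without following Zscan4. They are the 2 of 21 detected members with this pattern, against 0.398% of all features, and at a ratio of at least 8 between the libraries Pramel6 alone had it. Pramel6 had 2574 UMIs in the positive and 73 in the negative library, or 18.6 and 0.467 CPM, a ratio of 39.9 (31.6 to 51.0). It was at 16.6, 17.2, 23.1 and 27.6 CPM along the 4 Zscan4 classes, and Zscan4-high cells were 1.47 times (1.32 to 1.63) above Zscan4-0 cells. Its difference was therefore mainly between the libraries, and Zscan4-0 cells were already 35.5 times (27.9 to 45.8) above the negative library. Pramel7 had 1837 and 213 UMIs, or 13.3 and 1.36 CPM, a ratio of 9.75 (8.46 to 11.3). It was at 11.97, 13.9, 11.99 and 17.4 CPM along the Zscan4 classes, with no steady order, and the ratio of Zscan4-high to Zscan4-0 cells was 1.12 (0.985 to 1.28). The windows around the RefSeq starts of the pair (GRCm38.p6) are shown for comparison with those of Pramel20 and Pramel31, with CCAAT or its reverse ATTGG in capitals. Pramel6 is chr2:87506315-87506614 on the plus strand and Pramel7 is chr2:87492369-87492668 on the minus strand.
Pramel6: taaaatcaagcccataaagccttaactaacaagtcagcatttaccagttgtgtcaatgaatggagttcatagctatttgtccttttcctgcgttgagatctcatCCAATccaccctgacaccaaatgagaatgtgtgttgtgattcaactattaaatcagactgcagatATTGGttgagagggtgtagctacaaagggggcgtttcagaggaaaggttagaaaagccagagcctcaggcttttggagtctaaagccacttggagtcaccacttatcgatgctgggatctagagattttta
Pramel7: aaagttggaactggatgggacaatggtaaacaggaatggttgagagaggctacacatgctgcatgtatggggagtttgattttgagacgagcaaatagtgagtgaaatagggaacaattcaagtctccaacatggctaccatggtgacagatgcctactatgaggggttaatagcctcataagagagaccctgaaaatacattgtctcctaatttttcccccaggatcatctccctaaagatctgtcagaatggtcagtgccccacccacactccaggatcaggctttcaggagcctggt
The window of Pramel6 held 2 matches that did not overlap and that of Pramel7 held none, and neither held TATAAA. The longest run shared by the 2 windows was 10 bases, against 47 for Pramel20 and Pramel31. The GENCODE M21 start of Pramel7 lies further upstream than its window. Other pairs of detected members were more alike end to end than Pramel20 and Pramel31. These were Pramel14 and Pramel30 (97.3%), Pramel11 and Pramel24 (84.7%) and Pramel14 and Pramel7 (76.4%), and of them only Pramel24 followed Zscan4.

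In the negative library, Pramel7 was concentrated in cells with primitive endoderm markers. Cells with at least 5 UMIs of 8 such markers (Gata6, Gata4, Sox17, Sox7, Pdgfra, Dab2, Cubn and Foxa2) in 10000 were called endoderm-high. In the negative library these were 210 of 3824 cells (5.49%), and they held 180 of 213 Pramel7 UMIs (84.5%). Pramel7 was at 20.7 CPM in them and 0.224 CPM in the other cells, a ratio of 92.5 (63.6 to 138). It was the 1 detected member past 4-fold in that comparison, against 1.07% of all features. The ratio was 51.9 when 10 marker UMIs were required and 60.2 at 5000 UMIs per cell. Of the negative-library cells, 11.4% (7.46 to 16.5) of the endoderm-high and 0.277% (0.133 to 0.508) of the others had a Pramel7 UMI, at median depths of 39670.5 and 39099.5 UMIs and unreduced shares of 23.3% and 0.885%.

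In the positive library the same direction held with a smaller ratio. Its 447 endoderm-high cells (10.2% of 4402) held 558 of 1793 Pramel7 UMIs (31.1%), so most lay in other cells. Among Zscan4-0 cells, Pramel7 was at 45.7 CPM in 161 endoderm-high cells and 7.71 CPM in the other 1262 cells, a ratio of 5.93 (5.01 to 7.01). It was again the 1 detected member past 4-fold, against 1.03% of all features. Cells outside the endoderm-high class also differed between the libraries, at 10.1 CPM in the positive and 0.224 CPM in the negative library, a ratio of 45.1 (31.9 to 65.8). The ratio of Pramel7 between the libraries was thus larger without endoderm-high cells than with them (9.75). Pramel6 did not share the pattern. It was at 7.77 CPM in endoderm-high and 17.7 CPM in other Zscan4-0 cells, a ratio of 0.439 (0.314 to 0.5996).

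**Figure D5:**
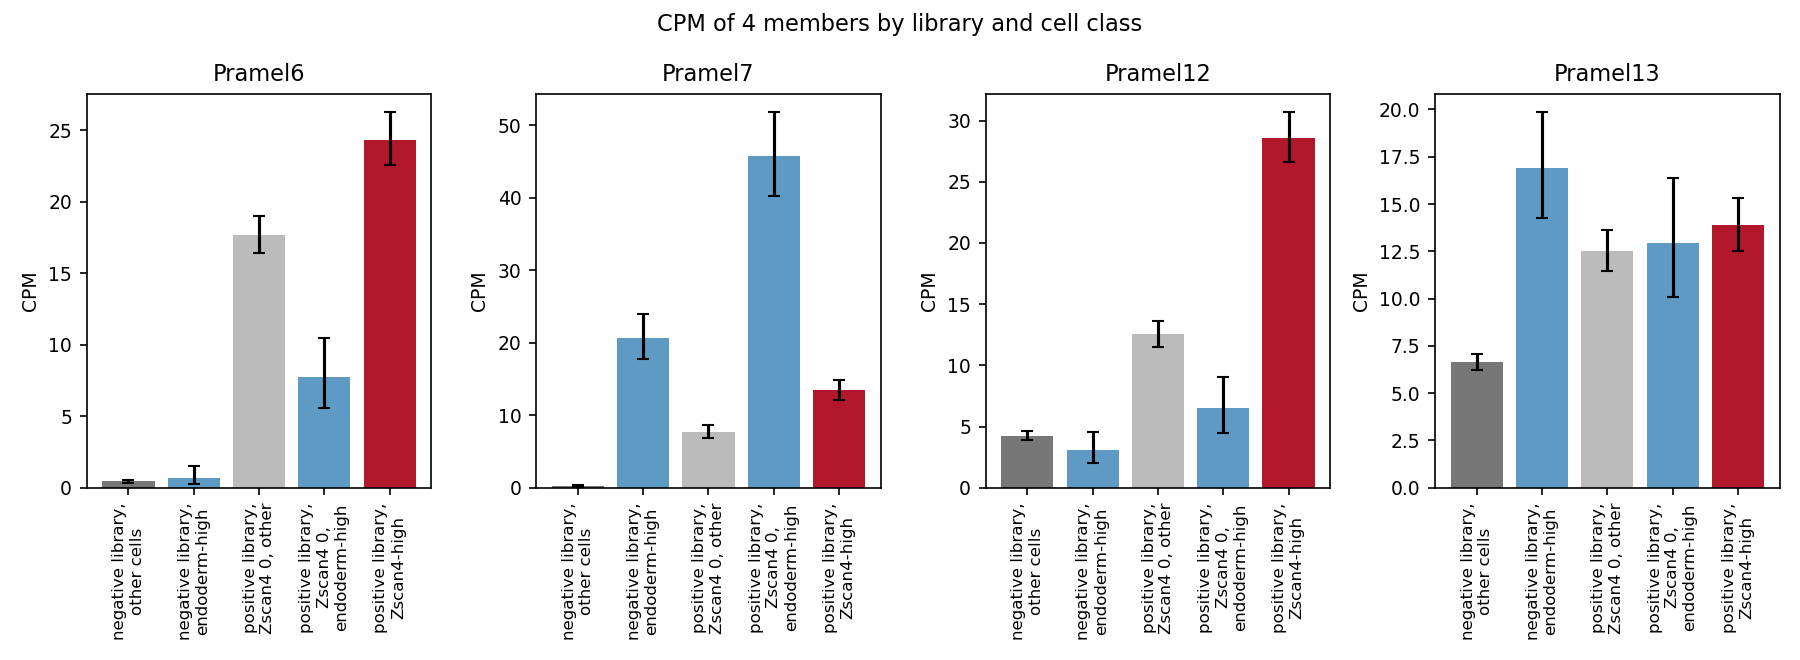
CPM of Pramel6, Pramel7, Pramel12 and Pramel13 in other and endoderm-high cells of the negative library, in other and endoderm-high Zscan4-0 cells of the positive library and in its Zscan4-high cells, with exact Poisson intervals. Pramel7 is tallest in endoderm-high Zscan4-0 cells (45.7 CPM), Pramel12 in Zscan4-high cells (28.6 CPM), and Pramel6 is near 0 in both negative-library classes.

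Pramel13, known as Pramef12 in GENCODE M21 and as a gene of spermatogonia, was the member found across the stem cells. The rule asked for at least 5 CPM in the negative library and in Zscan4-0 cells, with less than 4-fold between Zscan4-high and Zscan4-0 cells. It was met by 1 of the 21 detected members, against 45.7% of all features. Pramel13 had 1841 UMIs in the positive and 1129 in the negative library, or 13.3 and 7.22 CPM, a ratio of 1.84 (1.71 to 1.99). It was at 12.6, 13.8, 15.1 and 10.5 CPM along the Zscan4 classes, with no steady order. Its ratio of Zscan4-high to Zscan4-0 cells was 1.10 (0.969 to 1.26). Of the negative-library cells 7.17% had a UMI at 10000 UMIs per cell and 24.0% before reduction, so at this depth most cells had none. In the negative library it was 2.54 times (2.12 to 3.03) higher in endoderm-high cells, at 16.9 and 6.65 CPM. At 10000 UMIs per cell, 18.1% of these endoderm-high and 6.53% of the other cells had a Pramel13 UMI. Among Zscan4-0 cells of the positive library the shares were 10.6% (6.27 to 16.4) and 12.8% (11.0 to 14.7), without that difference.

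Pramel12 lay between the patterns. It had 2252 UMIs in the positive and 655 in the negative library, or 16.3 and 4.19 CPM, a ratio of 3.89 (3.56 to 4.25). It was at 11.9, 13.9, 24.1 and 40.7 CPM along the Zscan4 classes, and Zscan4-high cells were 2.41 times (2.16 to 2.69) above Zscan4-0 cells. It thus moved with Zscan4 by less than the 10 members above while being present in the negative library. With a minimum of 1 CPM, Pramel12 and Pramel7 also met the rule for members found across stem cells, Pramel7 through its endoderm-high cells, since it was at 0.224 CPM in the other cells of the negative library. Outside ribosomal and mitochondrial genes Pramel12 joined Pramel13, and at 20 CPM no member met the rule.

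Part of the ratios between the libraries is set by scaling. The median log2 ratio of all features between the libraries was 0.16, and -0.01 with TMM factors and -0.05 with median-of-ratios factors. On these scales Pramel13 had a log2 ratio of 0.80, 0.55 and 0.50, and Pramel12 of 1.74, 1.502 and 1.45. The medians for Zscan4-high over Zscan4-0 cells stayed between -0.09 and -0.03.

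The remaining 7 detected members had 61 to 126 UMIs over both libraries, which leaves wide intervals. Pramel11, Pramel5 and Pramel1 were higher in Zscan4-high cells without passing the rule. Pramel11 had 95 and 0 UMIs in the libraries and was at 2.54 CPM in Zscan4-high and 0.104 CPM in Zscan4-0 cells, a ratio of 24.5 (10.01 to 77.8) but a log2 ratio of 1.68 with 1 added. Pramel5 had 61 and 0 UMIs and a Zscan4 ratio of 8.09 (3.71 to 20.1). Pramel1 had 58 and 17 UMIs and a Zscan4 ratio of 10.1 (3.88 to 33.6). The other 4 did not separate the Zscan4 classes beyond counting error. Pramel3 had 74 and 5 UMIs, Pramel14 had 99 and 24, Pramel30 had 72 and 16, and Pramel13os had 70 and 56. Their Zscan4 ratios were 1.33 (0.692 to 2.51), 1.10 (0.563 to 2.10), 1.31 (0.625 to 2.696) and 0.648 (0.280 to 1.38). Pramel14 and Pramel30 share 73.5% and 73.8% of their windows with each other, and Pramel3 shares 81.8% with other genes, so their counts may be divided among copies. Pramel13os is annotated as antisense to Pramel13, and whether counting used strand is not given in the sources used here, so reads of the 2 cannot be told apart.

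Listed genes of CUL2 ligases and of DNA methylation did not pass 4-fold. Of 11 genes of CUL2 ligases, all with at least 50 UMIs, 0 passed 4-fold between the libraries and 0 between Zscan4 classes. Of all features, 1.79% and 1.83% were at least 4 times higher in these comparisons. Lists this short cannot show a difference from such shares. Their median log2 ratios were 0.31 and -0.05, against 0.16 and -0.07 over all features. Cul2, the scaffold of the ligase, was at 87.2 CPM in the positive and 87.5 CPM in the negative library. Of 8 DNA methylation genes, 0 passed 4-fold in either comparison, with medians of -0.01 and -0.40. All 8 were lower in Zscan4-high than in Zscan4-0 cells, at log2 ratios of -1.57 to -0.03. The highest of these lay above the median of all features, -0.07, and the share of all features that were lower was not computed. They summed to 648 CPM in Zscan4-high and 951 CPM in Zscan4-0 cells. Uhrf1, the known target of Pramel7, was at 90.8 and 97.5 CPM in the libraries, and Dnmt1, the maintenance methyltransferase, at 111 and 133 CPM. RNA levels do not show the amounts of these proteins.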

How the data were processed

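The files the authors deposited hold counts, as whole numbers by gene and by cell, for 1 library of each group. They are read as UMIs because barcodes have 16 bases; the labels do not state molecule counting, and their extraction text names a total RNA kit. Per the submitters' processing notes, FastQC 0.11.2, Trim Galore 0.6.4, STAR 2.7.6a and mm10 were used; annotation, counting and cell calling are not given in the sources used here. Cells were kept with at least 1000 UMIs, 500 genes and at most 20% mitochondrial UMIs. The libraries share 3 barcodes. No doublet caller was run, so doublets remain; an alternative drops cells with over 2 times the median UMIs of their library.

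CPM were taken over all genes from unreduced UMIs summed per class. Classes, shares and correlations (log2 of UMIs + 1) used cells reduced to 10000 UMIs, so 194 shallower cells of the positive and 8 of the negative library were not used there. Intervals are exact Poisson, exact conditional (ratios) and Clopper-Pearson. All 48 members matched GENCODE M21 by Ensembl ID and 37 matched RefSeq windows. Every detected member is named, and other genes come from fixed lists. Members and lists were chosen with earlier results of these data known. The endoderm comparison of Pramel7 and the members higher without following Zscan4 were chosen after seeing the data. On simulated data with 200 of 55415 genes changed 16-fold between Zscan4 classes, the rule recovered 100% with 0 false calls. The simulated sums had counting error alone, with no spread between cells. Every changed gene stood above the positive-library CPM of Pramel28 (1.66), Pramel21 (1.15), Pramel11 (0.687), Pramel5 (0.441) and Pramel1 (0.419). Recovery at such low levels was therefore not examined. Tools were R 4.3.3 with edgeR 4.0.16 (TMM factors only) and Python 3.11.15 with pandas 2.3.3, numpy 2.4.6, matplotlib 3.10.9 and scipy 1.17.1.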

Additional observations from a re-analysis of the deposited data

How the results depend on the processing

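No paired analysis was possible because neither group has more than 1 library, so no replicate could be left out either. The 10 members that followed Zscan4 were the same 10 under each cell filter and scaling. They were 9 (without Pramel21) with a Zscan4 threshold of 3, both at 10000 UMIs per cell and at 5000, 11 with a threshold of 10, 13 at a ratio of 2 or a pseudocount of 0.1 CPM, 6 at a ratio of 8 and 4 with GFP classes. The members across stem cells numbered 2 outside ribosomal and mitochondrial genes, 3 at 1 CPM and 0 at 20 CPM. Those higher without following numbered 5 with GFP classes and 1 at a ratio of 8. The share of all features was not computed for these alternatives, apart from the 1.22% that passed with GFP classes. The counts under looser or stricter rules therefore have no background beside them. The family's share of the positive library was 0.0231% without high-UMI cells, 0.0302% outside ribosomal and mitochondrial genes and 0.0294% as the mean over cells; the last 2 gave 0.00197% and 0.00150% in the negative library. With 10 endoderm marker UMIs required, the Pramel7 ratio was 51.9 in the negative and 4.90 in the positive library, and with 5000 UMIs per cell it was 60.2 in the negative library. Beyond fewer cells or UMIs in a class, causes were not tested. Of 462 alternative member ratios, 112 moved beyond the counting interval and 9 changed sign, all 9 of members not past 4-fold; 8 of 211 past it went under it. Depth limits the members under 130 UMIs, whose intervals are wide, and shares of cells.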

Other observations

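Of 12 listed PRAME-related symbols outside the Pramel names, 5 were in the table and none of these reached 50 UMIs. BC080695, C87499, C87977, C87414, BC061212 and D5Ertd577e are older names of Pramel20, Pramel32, Pramel29, Pramel34, Pramel37 and Pramel48, which are counted among the members. Pramex1, an X-linked member of the wider family, had 45 UMIs in the positive and 3 in the negative library, and Oog4, an oocyte gene, had 26 and 0. Of 7 detected germ cell and oocyte genes, 1 was at least 4 times higher in the positive library and 0 by Zscan4 class. Of 4 primed markers 0 passed in either. Of 12 listed 2C-like genes in the table, 11 were at least 4 times higher in the positive library, against 1.79% of all features; the list holds Zscan4 genes, whose own UMIs define the Zscan4 classes, so its ratios between those classes are not given.

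Within Zscan4-high cells Pramel7 was lower in CPM with GFP, at 12.2 CPM in GFP-high and 19.3 CPM in GFP-0 cells. The ratio was 0.631 (0.484 to 0.828), whereas Pramel6 was at 25.3 and 25.9 CPM (0.975, 0.787 to 1.22). After reduction to equal depth, Pramel7 was detected in 8.52% (6.50 to 10.9) of these GFP-high cells. In the GFP-0 cells it was detected in 17 of 149, or 11.4% (6.79 to 17.6). These shares overlap in their intervals, and the interval of the CPM ratio does not cover spread between cells. Pramel17 was 2.79 times (1.79 to 4.24) higher in endoderm-high than in other Zscan4-0 cells of the positive library, on 31 and 88 UMIs, and its neighbour Pramel18 1.12 times (0.671 to 1.77). In the negative library's endoderm-high cells the 10 members that follow Zscan4 had no UMI. These members had 51 UMIs in the whole negative library, and its 210 endoderm-high cells held 8703175 of its 156406894 UMIs. A count of 0 therefore says little about these cells.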
